A study of Homo sapiens with 6 samples.

Results

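The expressed antisense transcripts are genes that the deposited count table types as antisense and that reached 200 or more counts summed over 6 RNA-seq libraries of HK-2 cells. Genes on the X and Y chromosomes, small nucleolar RNA host genes whose symbols start with SNHG, and KCNQ1OT1 were not taken. The rule found 101 transcripts among 2760 antisense genes and 28565 genes of all types. The members were thus chosen for their summed level, which is described here without a test, and not for their difference between the groups. The members nearest above the minimum were TMCC1-AS1 with 203 counts and CTC-340A15.2 and RP1-184J9.2 with 200 counts each, and the nearest below it were RP11-500C11.3 with 190, RP11-10K16.1 with 187 and RP11-531A24.5 with 185 counts.

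HK-2 is an immortalised line of human kidney proximal tubule cells. Cells in all 6 libraries carried a plasmid that overexpresses a long noncoding RNA (lncRNA), named LncR2 in the sample titles, and had been incubated for 48 h after transfection. The groups were cells exposed to cisplatin, a platinum drug that crosslinks DNA, for 24 h (n = 3 libraries) and for 0 h (n = 3). No group without cisplatin at the later time was analysed here, so cisplatin and time after transfection cannot be told apart. Libraries of cells with a control plasmid were not analysed here either, so the effect of the lncRNA itself is not measured. No label ties the replicates to separate cultures, while the series design mentions 2 biological replicates, so p-values measure only the spread between these libraries, which may be technical.

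An antisense transcript is an RNA made from the DNA strand opposite to a gene, usually a protein-coding one, that it overlaps or adjoins. Many begin at the same promoter region as the coding gene and run away from it, others begin inside the gene or beyond its end and run across its exons. Most stay in the nucleus at low levels, where the RNA exosome degrades many of them, and some are known to act on the gene across from them through chromatin, splicing or RNA pairing. Ribosomal RNA was removed in place of selecting poly(A) tails, so nuclear RNA without a tail could be sequenced as well.

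The 24 h libraries held 6022268 to 7248754 counts each and the 0 h libraries 5028881 to 5844246. Levels are CPM, in which counts are set relative to the library total after TMM scaling, or FPKM, which also divides by gene length and is used where genes are compared with each other. Of 6 tubule epithelium markers, all were in the table, with summed levels of 981 to 1103 CPM at 24 h and 1040 to 1091 CPM at 0 h, although CDH1 had 2 counts over all libraries. Of 8 markers of mature proximal tubule, 6 had under 30 counts over all libraries, and the summed level was 133 to 151 CPM at 24 h and 130 to 145 CPM at 0 h. Markers of fibroblasts summed to 16.7 to 20.5 CPM at 24 h and 16.0 to 18.4 CPM at 0 h, those of immune cells to 1.10 to 2.17 CPM at 24 h and 1.40 to 2.16 CPM at 0 h, and those of endothelium to 0 to 0.434 CPM at 24 h and 0 to 0.399 CPM at 0 h. In bulk RNA, fewer cells of a type and less RNA per cell cannot be told apart.

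The 101 members came from all 22 autosomes, with 14 on chromosome 1. Positions in GENCODE 29 (GRCh38) were found for 97 of them, and that release still types 87 as antisense. Of the 10 others, it types 5 as protein coding. The 97 had a median of 4 exon blocks, a median exonic length of 3981 bases and a median span of 17244 bases. A coding gene on the opposite strand overlapped 87 of the 97, and 80 shared exonic bases with exons on that strand, at a median of 10.5% of the exonic length. In 5 members the shared part was over 50%. Because the sources used here do not say whether counting used strand, reads in such shared stretches could have been assigned to either gene, and the values below carry that limit.

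Most members were weakly expressed. The median over members of the mean level was 1.88 FPKM, 84 of 101 reached 1 FPKM and 6 reached 10 FPKM. Few counts lay behind many of them, with 40 members under 300 counts in all 6 libraries together and 14 at 1000 or more. All 101 passed the filter on low counts.

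A single gene held most of the antisense counts. It carries the symbol RPPH1, the name of the RNA subunit of ribonuclease P, which processes transfer RNA precursors, but its identifier in the table (ENSG00000259001.3, chr14:20343048-20343685, minus strand, GRCh38) is named AL355075.4 in GENCODE 29, and its start lies 103 bases from that of PARP2 on the opposite strand. Reads of the abundant ribonuclease P RNA and of a separate antisense transcript at this place cannot be told apart. It had 10602, 18120 and 10309 FPKM in the 24 h libraries and 10709, 7015 and 7382 FPKM in the 0 h libraries. The groups overlapped, and the log2 fold change of 0.39 ± 0.20 (24 h over 0 h, ± SE, here and below) had an adjusted p of 0.320 in edgeR's quasi-likelihood fit (Benjamini-Hochberg over 13389 genes). RPPH1 held 85.6% to 91.6% of the members' counts in the 24 h libraries and 80.1% to 86.7% in the 0 h libraries. The other 100 members made up 0.153% to 0.171% of all counts at 24 h and 0.162% to 0.198% at 0 h. Their summed level was 1696, 1551 and 1590 CPM in the 24 h libraries and 1871, 1949 and 1676 CPM in the 0 h libraries, which overlap.

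Well-known lncRNAs filled much of the top of the list. ZFAS1 (ENSG00000177410.12, chr20:49278178-49295738, plus strand), a host gene of small nucleolar RNAs that starts beside ZNFX1, had 49.5, 54.3 and 62.1 FPKM at 24 h and 49.3, 51.5 and 55.0 FPKM at 0 h. TUG1 (ENSG00000253352.8, chr22:30969245-30979395, plus strand), a conserved nuclear and cytoplasmic lncRNA whose start lies near that of MORC2, had 10.8, 10.6 and 11.4 FPKM at 24 h and 9.87, 11.3 and 10.3 FPKM at 0 h. Neither passed the test, with log2 fold changes of -0.15 ± 0.10 for ZFAS1 and -0.17 ± 0.10 for TUG1 (adjusted p = 0.457 and 0.388, edgeR). In CPM every 24 h library lay under every 0 h library for TUG1, at 95.9 ± 6.08 CPM at 24 h and 108 ± 6.63 CPM at 0 h (SD, n = 3 each). The nearest libraries were almost equal, with 24 h replicate 1 at 102.27 CPM and 0 h replicate 1 at 102.28 CPM. The fold changes of ZFAS1 and TUG1 both change sign when libraries are scaled by the totals behind the FPKM values. That scaling raises the log2 fold change of the median gene by 0.24, so all fold changes here are relative to the median gene. The promoters of these abundant members are shown as a frame for those of the called members further on, from RefSeq on GRCh38.p14, as 250 bases before to 50 bases after the start, 5′ to 3′ on the transcript's strand. The ZFAS1 window, whose RefSeq start lies 464 bases inside the GENCODE 29 gene, is at chr20:49278392-49278691 on the plus strand, and that of TUG1 is at chr22:30969015-30969314 on the plus strand. Capitals mark the CCAAT box (CCAAT, or ATTGG on the other strand) and the GC box (GGGCGG or CCGCCC), motifs frequent in promoters of widely expressed genes.
ZFAS1: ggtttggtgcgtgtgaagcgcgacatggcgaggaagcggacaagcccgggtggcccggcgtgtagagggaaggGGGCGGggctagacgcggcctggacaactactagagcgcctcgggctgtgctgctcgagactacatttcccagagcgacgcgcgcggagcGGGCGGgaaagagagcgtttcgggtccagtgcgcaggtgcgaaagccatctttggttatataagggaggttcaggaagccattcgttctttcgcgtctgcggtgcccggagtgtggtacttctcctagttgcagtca
TUG1: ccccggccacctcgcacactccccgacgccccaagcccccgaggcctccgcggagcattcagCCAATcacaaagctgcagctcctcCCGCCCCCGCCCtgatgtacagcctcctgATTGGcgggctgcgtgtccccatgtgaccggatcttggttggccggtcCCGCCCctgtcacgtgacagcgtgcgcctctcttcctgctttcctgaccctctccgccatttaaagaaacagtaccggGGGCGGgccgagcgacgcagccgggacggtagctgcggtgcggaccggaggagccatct
ZFAS1 had 2 GC boxes and no CCAAT box, while TUG1 had 4 GC boxes and 2 CCAAT boxes. None of the capitals of one motif overlap those of the other.

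RefSeq promoters were found for 49 of the 101 members, 41 by symbol and 8 by GENCODE 29 name. Of these, 24 (49.0%) held a CCAAT box and 30 (61.2%) a GC box on either strand, against 35.7% and 44.6% of 27305 promoters of the same length. Their median GC content was 63.7% against 58.3%, and they had a median of 24 CG dinucleotides against 14. These shares describe the letters in a window of 300 bases, and the 52 members without a match are not in them.

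Other abundant members are less well known. RP4-614O4.11 (ENSG00000261582.1, chromosome 20), which GENCODE 29 types as protein coding, had 47.7, 62.6 and 58.1 FPKM at 24 h and 38.9, 33.1 and 38.0 FPKM at 0 h. All its 24 h libraries were above all its 0 h libraries, and the log2 fold change of 0.37 ± 0.12 had an adjusted p of 0.116 (edgeR). SCARNA9, named for a small Cajal body RNA, one of the guides for modification of spliceosomal RNAs, had 22.4 to 31.7 FPKM at 24 h and 21.5 to 37.9 FPKM at 0 h. RP11-282O18.3 had 16.6 to 22.8 FPKM at 24 h and 8.87 to 18.9 FPKM at 0 h, with a log2 fold change of 0.15 ± 0.20. FGD5-AS1 had a mean of 67.5 ± 5.34 CPM at 24 h and 82.2 ± 4.37 CPM at 0 h (SD, n = 3 each), with all 24 h libraries below all 0 h libraries, and a log2 fold change of -0.29 ± 0.11 (adjusted p = 0.158, edgeR). AC002480.3 had a log2 fold change of 0.02 ± 0.15. None of the 8 members with the highest FPKM passed the test in the reported fit. Over 16 alternative settings RP4-614O4.11 was called in 5, RPPH1 in 2 and FGD5-AS1 in 1.

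After 24 h of cisplatin, 1 of the 101 members rose and 3 fell, and 97 did not pass the test at an adjusted p under 0.05. NOP14-AS1 rose 0.80 ± 0.20 on the log2 scale, and RP11-739B23.1, RP3-395M20.8 and RP11-175O19.4 fell by 1.40 ± 0.34, 1.10 ± 0.24 and 0.67 ± 0.15. The members called were 3.96% of 101, against 2.94% of all 13389 genes tested, with 0.866% of all genes called higher and 2.08% called lower. How the members' share stood to that of all genes depended on the fit. DESeq2 called 0 of the members higher and 3 lower (2.97% of members, against 2.73% of all genes). These 3 were not the same as those of edgeR, since RP11-739B23.1 was not among them and SLC25A25-AS1 was. With libraries scaled by the totals behind the FPKM values, 11 members rose and 7 fell (17.8% of members, against 19.0% of all genes). Fits to log2(FPKM + 1) with limma called 8 higher and 2 lower (9.90% of members, against 13.4% of all genes), and those to log2(FPKM + 0.1) 8 and 1 (8.91%, against 13.2%). With no filter on low counts 3 members rose and 11 fell (13.9% of members, against 2.59% of all genes). With a filter of 50 counts in 3 libraries 1 rose and 5 fell of the 65 members left (9.23%, against 3.33% of all genes).

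The bulk of the members moved little. Their log2 fold changes ran from -1.40 to 0.80 with a median of -0.15 and quartiles of -0.34 and 0.15, against a median of -0.00 over all genes. In 81 of 101 members the change was under 0.5 in size, and in 2 it was 1 or more. A value below 0 was found in 62 members (61.4%), against 50.3% of all genes. At an unadjusted p under 0.05 stood 26 members (25.7%), 7 higher and 19 lower, against 18.1% of all genes, 8.22% higher and 9.93% lower. All 24 h libraries were below all 0 h libraries in 19 members (11.7% of all genes) and above them in 8 (10.9% of all genes), 22.6% of all genes being apart one way or the other, and the groups overlapped in 74 members. The median SE of a member's fold change was 0.21, against 0.14 for all genes.

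**Figure D1:**
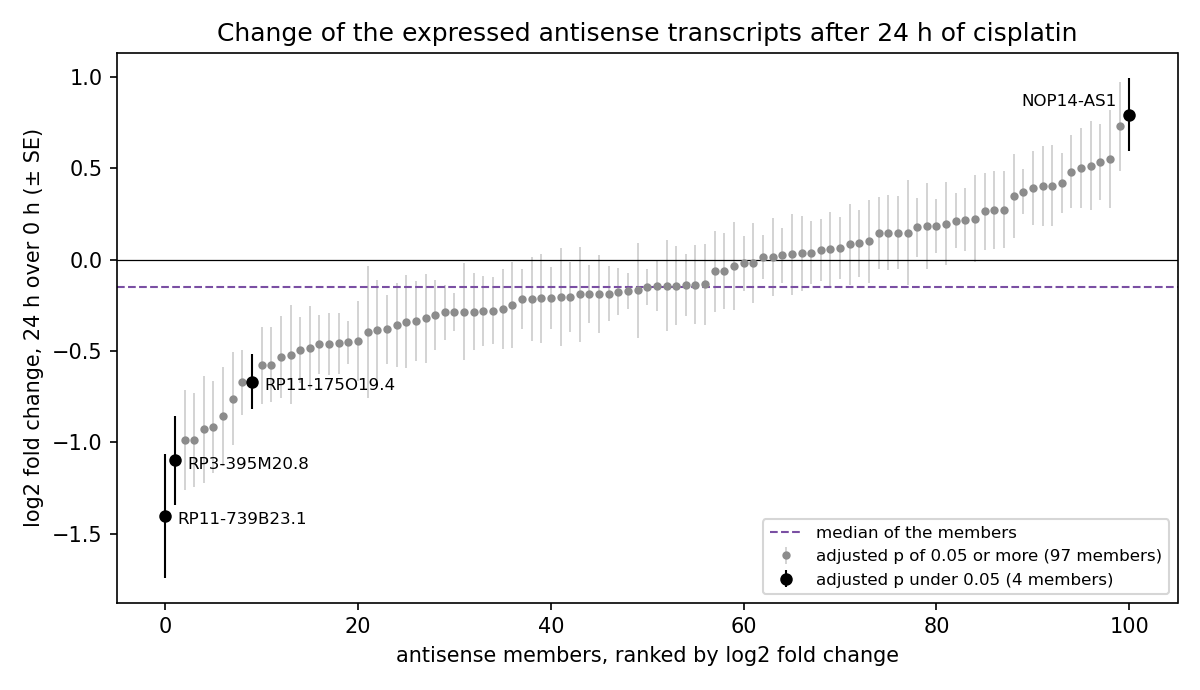
Log2 fold change of each of the 101 antisense members (24 h over 0 h, vertical axis, bars ± SE of the edgeR fit) ranked from lowest to highest (horizontal axis). The 4 members with an adjusted p under 0.05 are black and named, and the dashed line is the median of -0.15.

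The libraries of a group did not sit together. Relative to the mean of the 0 h libraries, the members' median log2 level was -0.01, -0.17 and -0.13 in the 3 libraries at 24 h and 0.07, 0.05 and -0.13 in those at 0 h. By this measure 0 h replicate 3 lay among the 24 h libraries. Of the 19 members lower at an unadjusted p under 0.05, 15 had their lowest 0 h value in that library. Without 0 h replicate 3, 2 members rose and 18 fell (19.8% of members, against 10.9% of all genes). Without 24 h replicate 3 (1.36% of all genes called), and likewise without 0 h replicate 2 (0.933%), edgeR called 0 members in either direction. With 24 h replicate 1 left out 0 members rose and 4 fell (3.96% of members, against 1.92% of all genes), with 24 h replicate 2 left out 0 and 1 (0.990%, against 0.826%), and with 0 h replicate 1 left out 0 and 2 (1.98%, against 2.27%). With both libraries numbered 3 left out 1 rose and 14 fell (14.9% of members, against 6.3% of all genes).

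NOP14-AS1 (ENSG00000249673.6) lies at chr4:2934899-2961738 on the plus strand, across from NOP14, which encodes a nucleolar protein needed to make the small ribosomal subunit. It starts 40 bases from the start of MFSD10, a membrane transporter gene on the other strand. It had 74, 76 and 68 counts at 24 h and 31, 35 and 32 counts at 0 h. In CPM these were 12.2, 11.0 and 9.33 at 24 h and 6.18, 6.86 and 5.65 at 0 h. All 24 h libraries were above all 0 h libraries, with means of 10.8 ± 1.45 and 6.23 ± 0.607 CPM (SD, n = 3 each). The adjusted p was 0.0437 (edgeR), and the 95% interval of the log2 fold change was 0.37 to 1.22. DESeq2 gave an adjusted p of 0.0900, and of the 6 fits without 1 library the call was made in 1, the fit without 0 h replicate 3. Its adjusted p lay between 0.00219 and 0.180 over 16 alternative settings.

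NOP14 itself averaged 113 ± 3.25 CPM at 24 h and 129 ± 3.25 CPM at 0 h (SD, n = 3 each), with a log2 fold change of -0.19 ± 0.09 and an adjusted p of 0.283 (edgeR). MFSD10, across the shared start region, had a log2 fold change of 0.16 ± 0.16 (adjusted p = 0.644, edgeR). Per 100 counts of NOP14 there were 11.0, 9.45 and 8.41 counts of NOP14-AS1 at 24 h and 4.91, 5.35 and 4.27 at 0 h. RefSeq places the start of this member 647 bases inside the gene as GENCODE 29 gives it, away from the start beside MFSD10. The RefSeq window around that start, at chr4:2935296-2935595 on the plus strand, held 1 CCAAT box, on the other strand, and no GC box, with 16 CG dinucleotides.
NOP14-AS1: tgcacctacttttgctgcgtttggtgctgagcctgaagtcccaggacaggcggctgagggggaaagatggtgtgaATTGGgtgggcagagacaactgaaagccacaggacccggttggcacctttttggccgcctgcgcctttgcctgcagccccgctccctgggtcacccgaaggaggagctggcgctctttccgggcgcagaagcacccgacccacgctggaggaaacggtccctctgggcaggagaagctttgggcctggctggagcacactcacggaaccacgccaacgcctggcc

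RP3-395M20.8 (ENSG00000238164.6), which GENCODE 29 names TNFRSF14-AS1, lies at chr1:2549920-2557031 on the minus strand. TNFRSF14, across from it, encodes a receptor of the tumour necrosis factor receptor superfamily that lymphocytes and epithelia use in co-signalling. The transcript had 36, 55 and 36 counts at 24 h and 81, 78 and 52 counts at 0 h. In CPM these were 5.94, 7.96 and 4.94 at 24 h and 16.1, 15.3 and 9.18 at 0 h. The groups did not overlap, although 0 h replicate 3 was close to the 24 h range. The means were 6.28 ± 1.54 CPM at 24 h and 13.5 ± 3.80 CPM at 0 h (SD, n = 3 each), and the adjusted p was 0.0214 (edgeR), with a 95% interval of -1.61 to -0.59. TNFRSF14 had a log2 fold change of -0.14 ± 0.17 (adjusted p = 0.723, edgeR). Leaving out replicate 1 or 3 at 24 h, or replicate 1 or 2 at 0 h, ended the call. Over the 16 alternatives the adjusted p lay between 4.17e-06 and 0.126. The RefSeq promoter of this member that fell, at chr1:2556962-2557261 on the minus strand, held 1 GC box, on the other strand, no CCAAT box and 9 CG dinucleotides.
RP3-395M20.8: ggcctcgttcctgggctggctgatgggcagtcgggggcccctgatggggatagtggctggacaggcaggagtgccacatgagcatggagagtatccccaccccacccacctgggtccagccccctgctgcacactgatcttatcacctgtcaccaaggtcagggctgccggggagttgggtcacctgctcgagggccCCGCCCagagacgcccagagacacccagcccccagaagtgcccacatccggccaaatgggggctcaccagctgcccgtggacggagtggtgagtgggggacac

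RP11-739B23.1 (ENSG00000268635.2, AP003680.1 in GENCODE 29) is a transcript of 1 exon block at chr11:77473371-77477030 on the plus strand. It lies across from PAK1, which encodes a kinase of cytoskeletal and survival signalling, and 25.5% of its length is shared with exons on that strand. It had 163, 63 and 121 counts at 24 h and 177, 385 and 155 counts at 0 h. In CPM these were 26.9, 9.12 and 16.6 at 24 h and 35.3, 75.5 and 27.4 at 0 h. The groups were apart by less than 1 CPM at their nearest libraries, and the spread within each group was wide, with means of 17.5 ± 8.92 CPM at 24 h and 46.0 ± 25.8 CPM at 0 h (SD, n = 3 each). The adjusted p was 0.0351 by edgeR and 0.254 by DESeq2. Leaving out replicate 2 or 3 at 24 h, or replicate 2 at 0 h, ended the edgeR call, and the adjusted p lay between 2.14e-16 and 0.254 over the 16 alternatives. PAK1 had a log2 fold change of -0.20 ± 0.13 (adjusted p = 0.443, edgeR).

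RP11-175O19.4 (ENSG00000231025.1) is on chromosome 10 in the table and has no position in GENCODE 29. It had 143, 123 and 128 counts at 24 h and 175, 142 and 173 counts at 0 h. In CPM these were 23.6, 17.8 and 17.6 at 24 h and 34.9, 27.8 and 30.5 at 0 h. All 24 h libraries were below all 0 h libraries. The adjusted p was 0.0251 (edgeR), with a 95% interval of -0.99 to -0.35. The call ended when replicate 2 or 3 at 24 h, or replicate 1 or 2 at 0 h, was left out, and the adjusted p lay between 0.000809 and 0.172 over the 16 alternatives.

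**Figure D2:**
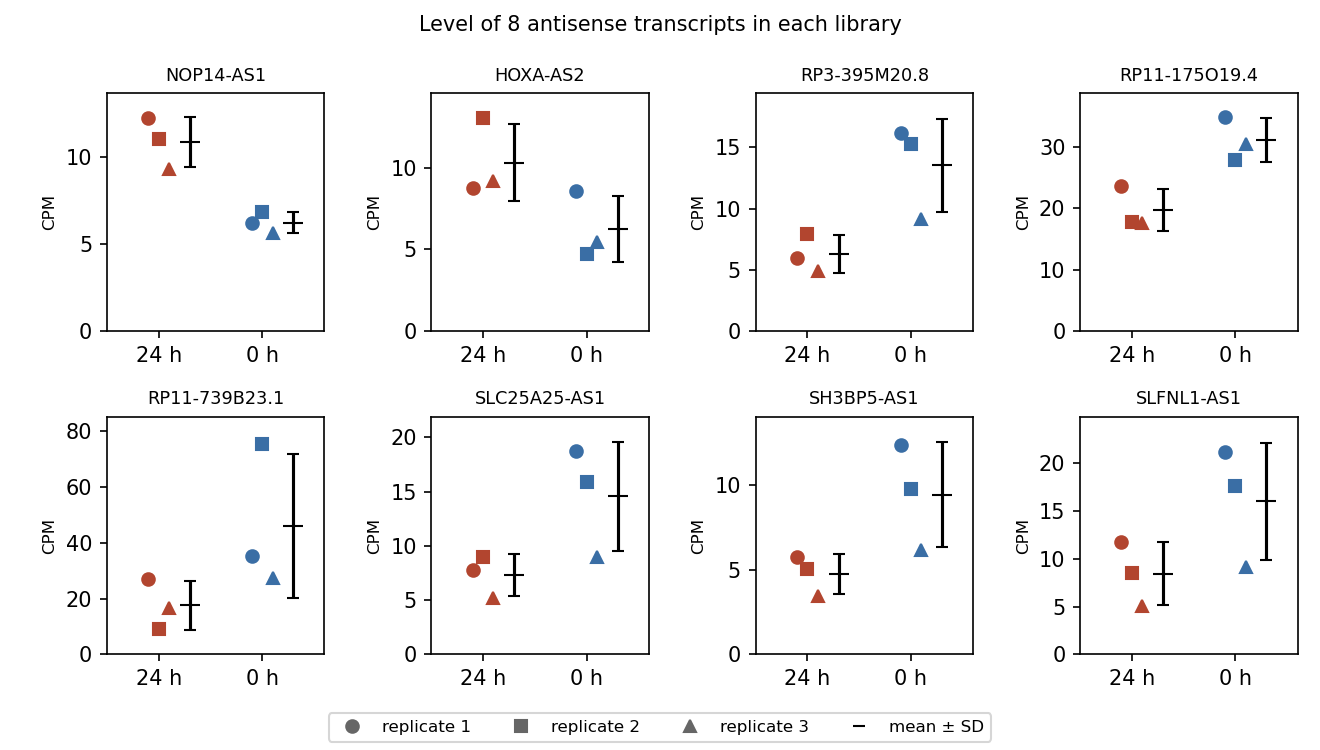
Level in CPM (vertical axis, from 0) of 8 antisense transcripts in the 3 libraries at 24 h and the 3 at 0 h, with the mean ± SD beside each group. In RP3-395M20.8, SLC25A25-AS1, SH3BP5-AS1 and SLFNL1-AS1 0 h replicate 3 is the lowest of its group, and in NOP14-AS1 every 24 h library is above every 0 h library.

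A further group of members lay just past the threshold on the lower side, and none of them passed the test. HNRNPU-AS1, across from the gene of a nuclear scaffold protein that binds RNA, had 44.5, 35.7 and 44.0 CPM at 24 h and 57.6, 58.4 and 54.0 CPM at 0 h. Its log2 fold change was -0.45 ± 0.12, with an adjusted p of 0.050 (edgeR), which before rounding was just above the threshold. UBA6-AS1, which starts beside the gene of a ubiquitin-activating enzyme, had 8.08, 9.84 and 10.1 CPM at 24 h and 13.0, 15.3 and 16.6 CPM at 0 h (-0.67 ± 0.18, adjusted p = 0.0512, edgeR). In both of them the groups were well apart, and 0 h replicate 3 was the highest 0 h library in UBA6-AS1.

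SLC25A25-AS1, across from a mitochondrial nucleotide carrier gene, had 7.75, 8.97 and 5.21 CPM at 24 h and 18.7, 15.9 and 9.00 CPM at 0 h (-0.99 ± 0.26, adjusted p = 0.0517 by edgeR and 0.0285 by DESeq2). SH3BP5-AS1, across from the gene of a regulator of Rab GTPases and stress kinases, had 5.77, 5.07 and 3.43 CPM at 24 h and 12.4, 9.80 and 6.18 CPM at 0 h (-0.99 ± 0.27, adjusted p = 0.0658, edgeR). SLFNL1-AS1 had 11.7, 8.54 and 5.07 CPM at 24 h and 21.1, 17.6 and 9.18 CPM at 0 h (-0.93 ± 0.29, adjusted p = 0.101, edgeR), and its groups overlapped. In these 3 members replicate 3 was the lowest of its group at both times.

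On the higher side, HOXA-AS2, within the cluster of HOXA genes that encode patterning transcription factors, had 8.74, 13.0 and 9.19 CPM at 24 h and 8.57, 4.70 and 5.47 CPM at 0 h. Its groups came close at their nearest libraries, and the log2 fold change of 0.73 ± 0.25 had an adjusted p of 0.121 (edgeR). HOXA10-AS, of the same cluster, had 11.2, 15.2 and 10.7 CPM at 24 h and 8.77, 7.64 and 10.1 CPM at 0 h (0.48 ± 0.20, adjusted p = 0.207, edgeR). It shares 62.3% of its exonic length with exons of the opposite strand, where HOXA9 and HOXA10 both rose. HOXA9 averaged 59.5 ± 3.35 CPM at 24 h and 35.0 ± 6.41 CPM at 0 h (SD, n = 3 each), with a log2 fold change of 0.77 ± 0.13 (adjusted p = 0.00446, edgeR). HOXA10 averaged 35.1 ± 3.84 CPM at 24 h and 21.7 ± 3.35 CPM at 0 h (SD, n = 3 each), with one of 0.69 ± 0.14 (adjusted p = 0.0164, edgeR), which was 0.0801 without 24 h replicate 3 and 0.0556 without 0 h replicate 1. Since strand use in counting is not known, the part of HOXA9 and HOXA10 reads in the value of HOXA10-AS was not tested. HOTAIRM1, at the other end of that cluster, had a log2 fold change of -0.32 ± 0.24, and HAGLR, of the HOXD cluster, one of -0.19 ± 0.16. The HOX antisense transcripts therefore had values on both sides of 0, although HAGLR was at 0.049 with the FPKM totals, and none passed the test.

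TMPO-AS1, across from the gene of a nuclear lamina protein, had 14.0, 14.0 and 11.7 CPM at 24 h and 12.0, 9.02 and 6.53 CPM at 0 h (0.54 ± 0.21, adjusted p = 0.182, edgeR), with groups that overlapped. ARRDC1-AS1, across from an arrestin-domain gene, had 8.41, 5.50 and 6.86 CPM at 24 h and 4.19, 5.49 and 4.77 CPM at 0 h (0.51 ± 0.24, adjusted p = 0.276, edgeR), with the groups almost touching. CTD-3138B18.5 had a log2 fold change of 0.55 ± 0.27, SERTAD4-AS1 one of 0.50 ± 0.22 and LINC00094 one of 0.42 ± 0.16, with adjusted p of 0.289, 0.231 and 0.185 (edgeR). DLEU2, host of a microRNA cluster, had 13.7, 9.99 and 8.37 CPM at 24 h and 7.58, 9.60 and 6.88 CPM at 0 h (0.41 ± 0.22, adjusted p = 0.356, edgeR).

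The change of a member was also described by how it lies to the opposite strand. In 44 members the start was within 1000 bases of the start of an opposite coding gene, and these had a median log2 fold change of -0.13 with 1 called, while the 53 farther away had a median of -0.19 with 2 called. Of the neighbouring coding genes at such shared start regions, 42 were tested and 0 passed the test. In the reported fit the neighbour's fold change had the member's sign in 24, and signs of small changes depend on the scaling. The members with no exonic bases shared with the other strand had a median of -0.06 (n = 17, 0 called), those sharing up to 20% one of -0.14 (n = 52, 2 called) and those sharing more one of -0.18 (n = 28, 1 called). No test was made between these groups of members. Of all coding genes that overlap members on the opposite strand, 84 were tested and 2 were called, HOXA9 and HOXA10, both across from HOXA10-AS. The background for all calls by position is 2.94% of all genes tested.

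In 47 members the symbol ends in -AS1, -AS2 or -AS3 after the name of a sense gene. The sense gene was in the table for 44 of them and passed the filter on low counts for 35. In those 35 pairs the antisense level was a median of 22.2% of the sense level in FPKM, and it was above the sense level in 3 pairs. THAP9-AS1 was among these 3, with a mean of 3.40 FPKM over 6 libraries against 0.642 FPKM for THAP9. Among the 43 pairs with an FPKM for both genes the antisense level was the higher in 11. DLGAP1-AS1, for example, had 5.75 FPKM while DLGAP1, known as a gene of neuronal synapses, had 0.010 FPKM. SLFNL1-AS1 had 1.51 FPKM with SLFNL1 at 0.0050 FPKM, the mean of values that the table rounds to hundredths.

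**Figure D3:**
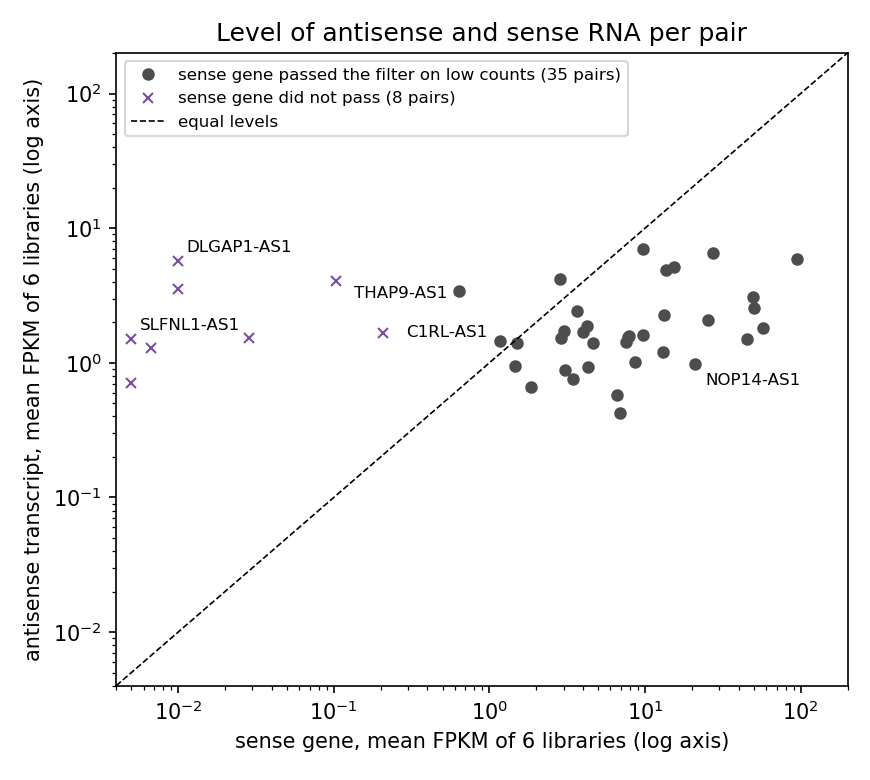
Mean FPKM over 6 libraries of the antisense transcript (vertical, log axis) against that of its sense gene (horizontal, log axis), for the 43 pairs with an FPKM for both genes. Of the 35 pairs whose sense gene passed the filter on low counts, 3 lie above the line of equal levels, and the 8 pairs marked by crosses lie above it.

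None of the 35 sense genes passed the test in edgeR or in DESeq2, and 8 had an unadjusted p under 0.05 in edgeR, 5 higher and 3 lower (22.9% of the sense genes, against 18.1% of all genes). Their median log2 fold change was 0.04, from -0.33 to 0.58, beside a median of -0.20 for their antisense partners. The 2 genes of a pair had the same sign in 17 pairs and opposite signs in 18. Of the 18, the antisense transcript had the lower value and the sense gene the higher one in 13, and the reverse held in 5. These counts of signs, and those below, are from the reported fit, and signs of small changes depend on the scaling. Across the 35 pairs Pearson's r of the fold changes was -0.08 and Spearman's rho -0.0022, given as a description since the genes of all pairs come from the same libraries.

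Where the positions were known, the pairs were grouped by how the genes meet. In 17 tested pairs the genes overlapped at their starts, with a median log2 fold change of -0.18 for the antisense transcript and 0.04 for the sense gene, and the signs agreed in 8. In 10 pairs the genes overlapped at their ends, with medians of -0.10 for the antisense transcript and 0.02 for the sense gene, and the signs agreed in 3. In 4 pairs the start of the sense gene lay inside the antisense gene, with the same sign in 3, and in 3 pairs the genes ran apart with no overlap, with the same sign in 3.

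**Figure D4:**
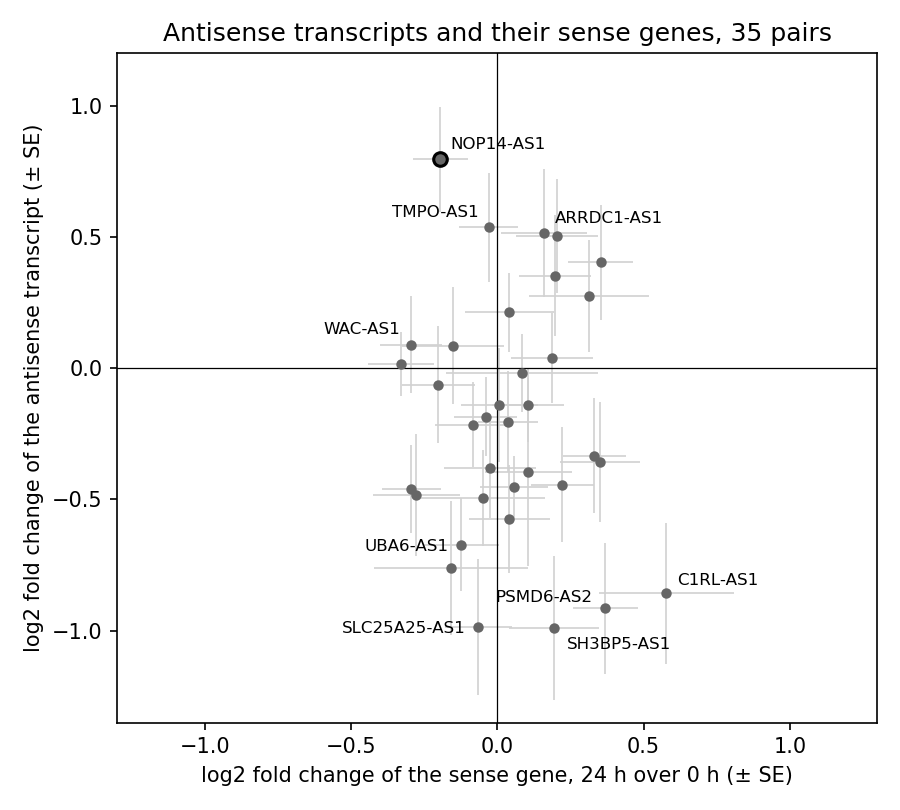
Log2 fold change of the antisense transcript (vertical) against that of its sense gene (horizontal), 24 h over 0 h, in 35 pairs, with bars of ± SE. NOP14-AS1, ringed in black, is the called member among them, the sense genes stay between -0.33 and 0.58, and the points fall in all 4 quadrants.

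The balance within a pair was measured as the log2 ratio of antisense to sense counts in each library, which does not depend on how libraries are scaled. The median change of this ratio was -0.18, and it was below 0 in 24 of 35 pairs. All 24 h libraries were below all 0 h libraries in 9 pairs and above them in 2. Each of these 11 pairs reached p = 0.1 in an exact two-sided permutation test, the smallest that 3 libraries against 3 can give, and the adjusted p over 35 pairs was 0.318, so none passed the threshold. The other 24 pairs overlapped. For the levels of single genes, the groups were apart in 22.6% of all genes tested, and no such share was computed for ratios of other genes.

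The largest shift was at C1RL, which encodes a secreted protease related to complement C1r. Per 100 counts of C1RL there were 154, 91.4 and 93.7 counts of C1RL-AS1 at 24 h and 425, 250 and 254 at 0 h, a change of the log2 ratio of -1.44 ± 0.35 (± SE from the spread between libraries, here and below for ratios). C1RL-AS1 had 14.2, 7.67 and 8.09 CPM at 24 h and 23.7, 19.6 and 10.8 CPM at 0 h (-0.86 ± 0.27, adjusted p = 0.0997, edgeR), with overlapping groups. C1RL averaged 8.76 ± 0.434 CPM at 24 h and 5.89 ± 1.82 CPM at 0 h (SD, n = 3 each), and its log2 fold change of 0.58 ± 0.23 had an adjusted p of 0.196 (edgeR). Both genes contributed to the shift, and C1RL rested on 24 to 63 counts per library.

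At PSMD6, which encodes a subunit of the proteasome's regulatory particle, there were 3.86, 1.92 and 3.07 counts of PSMD6-AS2 per 100 sense counts at 24 h and 8.02, 8.30 and 5.41 at 0 h. PSMD6-AS2 had 5.11, 2.89 and 4.94 CPM at 24 h and 8.57, 8.82 and 7.06 CPM at 0 h (-0.92 ± 0.25, adjusted p = 0.0623, edgeR). PSMD6 had 148 ± 14.2 CPM at 24 h and 115 ± 13.8 CPM at 0 h (SD, n = 3 each), with a log2 fold change of 0.37 ± 0.11 (adjusted p = 0.0903, edgeR). The antisense and the sense RNA thus had values on opposite sides of 0, neither past the threshold.

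At CDKN2B, which encodes an inhibitor of cyclin-dependent kinases, CDKN2B-AS1 (also called ANRIL, known for silencing this locus through Polycomb proteins) had 16.0, 19.6 and 15.7 counts per 100 sense counts at 24 h and 29.2, 28.2 and 27.2 at 0 h. The change of the log2 ratio was -0.73 ± 0.10. The antisense fold change was -0.36 ± 0.23 and that of CDKN2B 0.35 ± 0.14 (adjusted p = 0.444 and 0.180, edgeR). UBA6-AS1 had 6.96, 8.56 and 7.41 counts per 100 counts of UBA6 at 24 h and 12.1, 11.0 and 10.7 at 0 h, and HNRNPU-AS1 had 5.01, 3.75 and 4.57 per 100 counts of HNRNPU at 24 h and 7.06, 6.98 and 5.18 at 0 h. In these pairs the sense genes had log2 fold changes of -0.12 ± 0.13 for UBA6 and 0.06 ± 0.12 for HNRNPU. In the reported fit these were smaller in size than the -0.67 of UBA6-AS1 and the -0.45 of HNRNPU-AS1. With the totals behind the FPKM values UBA6 changed sign, so the part of each gene in the shift depends on the scaling.

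The other pairs with a lower ratio in all 24 h libraries were SH3BP5-AS1 (-1.15 ± 0.35), SLC25A25-AS1 (-0.89 ± 0.36), NRSN2-AS1 (-0.67 ± 0.14) and TMEM161B-AS1 (-0.35 ± 0.05), with SH3BP5 at a log2 fold change of 0.19 ± 0.16 and SLC25A25 at -0.06 ± 0.11. The SE of a ratio rests on 3 libraries a group and can come out below the counting error. For the antisense transcript alone, the edgeR SE was 0.19 in TMEM161B-AS1 and 0.23 in CDKN2B-AS1, larger than the SE of their ratios. The pairs with a higher ratio were NOP14-AS1 (0.98 ± 0.15) and WAC-AS1 (0.39 ± 0.20). In the pair of WAC, which encodes an adaptor for histone ubiquitination, the antisense fold change was 0.09 ± 0.19 and that of WAC -0.30 ± 0.11 (adjusted p = 0.146, edgeR).

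Genes that degrade, edit or use such RNA were described from lists. Of 24 tested genes of the nuclear exosome and its RNA-targeting cofactors, 0 rose and 0 fell, the median log2 fold change was -0.06, and 5 had an unadjusted p under 0.05, 3 lower and 2 higher. The lower ones with the smallest p were EXOSC6, an exosome core subunit (-0.51 ± 0.16, adjusted p = 0.0933, edgeR), and ZCCHC8, of the complex that brings nuclear RNA to the exosome (-0.33 ± 0.11, adjusted p = 0.112, edgeR). The higher ones were the core subunits EXOSC2 (0.27 ± 0.11, adjusted p = 0.215, edgeR) and EXOSC8 (0.28 ± 0.13, adjusted p = 0.249, edgeR). Of 18 genes of double-stranded RNA sensing and editing, 0 rose and 0 fell, with a median of 0.01 and 1 at an unadjusted p under 0.05, PRKRA, an activator of the kinase PKR (0.49 ± 0.16, adjusted p = 0.112, edgeR). Of 12 genes of microRNA and small RNA processing, 0 rose and 1 fell, with a median of -0.13 and 2 at an unadjusted p under 0.05. The gene that fell was AGO3, an Argonaute protein that carries small RNAs, at 58.8 ± 1.92 CPM at 24 h and 80.6 ± 5.97 CPM at 0 h (SD, n = 3 each) with a fold change of -0.45 ± 0.10 on the log2 scale (adjusted p = 0.0278, edgeR). Of 14 genes of nonsense-mediated decay, 0 rose and 0 fell, with a median of -0.04 and 1 at an unadjusted p under 0.05. The background is 2.94% of all genes for the calls and 18.1% of all genes for an unadjusted p under 0.05.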

How the data were processed

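The authors deposited read counts per gene (28565 genes) and FPKM values (28561 genes, rounded to hundredths) for 6 libraries of rRNA-depleted, directional RNA-seq. The tools named in the submitters' processing notes are TopHat2, bcl2fastq and edgeR, with the build GRCh38. The read counter, the annotation release and whether counting used strand are not given in the sources at hand. Gene types and symbols are those of the count table, and positions were matched by unversioned identifier to GENCODE 29.

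The deposited counts at 24 h and at 0 h were compared with edgeR's quasi-likelihood test (edgeR 4.0.16, R 4.3.3), with TMM scaling, the filterByExpr filter, no covariates and Benjamini-Hochberg adjustment over the 13389 genes tested, and an adjusted p under 0.05 was called. The script was tested on simulated data. The SE of a fold change includes counting error as well as the spread between libraries. For antisense to sense ratios an exact permutation test, two-sided, was used.

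The alternatives were RLE scaling, library totals, scaling by the totals behind the FPKM values (recovered from count divided by FPKM in 183 genes with 1 transcript and over 300 counts), no filter, a filter of 50 counts in 3 libraries, the replicate number as a block, each library left out, both libraries numbered 3 left out, DESeq2 1.42.0, limma 3.58.1 on log2(FPKM + 1) and log2(FPKM + 0.1), and other count minimums for members. The members, gene lists and markers were chosen with earlier results of these data known. The text names the called members and their partners, the 8 members with the highest FPKM and the 5 largest changes each way. The genes C1RL-AS1, PSMD6-AS2, CDKN2B-AS1, UBA6-AS1, HNRNPU-AS1, WAC-AS1, NRSN2-AS1, TMEM161B-AS1, THAP9-AS1, DLGAP1-AS1, SERTAD4-AS1, LINC00094, HOXA10-AS, HOXA9, HOXA10, HOTAIRM1, HAGLR and DLEU2, the sense genes and neighbours given with members, and the genes named from lists were chosen after their values were seen. Of the markers, 1 is not reported here. No column of a sample went unused.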

Additional observations from a re-analysis of the deposited data

How the results depend on the processing

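Scaling by the totals behind the FPKM values gave 11 members higher and 7 lower, limma on log2(FPKM + 1) 8 and 2, limma on log2(FPKM + 0.1) 8 and 1, no filter on low counts 3 and 11, the filter of 50 counts 1 and 5 (65 members tested), leaving out both libraries numbered 3 1 and 14, and DESeq2 0 and 3. Over the fits without 1 library, 0 to 2 members rose and 0 to 18 fell. A minimum of 500 counts left 0 members higher, because NOP14-AS1, the only one that rose, had 316 counts in all and was not taken. The replicate number as a block gave 4 higher and 17 lower (20.8% of members, against 12.7% of all genes), and 3 sense genes higher and 3 lower (1698 genes called in all). The deviations of same-numbered libraries correlated at 0.26, -0.01 and 0.46, and those of unlike-numbered ones at -0.39 to 0.24. Replicates 1 and 3 at 24 h correlated best with the same number at 0 h, while 24 h replicate 2 correlated best with 0 h replicate 1. These values do not settle whether the numbers mark pairs. The reported fit did not take them as pairs, and its calls differ from those of the block for that reason.

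Sense genes called higher were 8 with the FPKM totals, 7 by limma with either pseudocount and 2 with no filter, against 0 in the reported fit, where 0 were lower. Of all genes, calls in either direction were 19.0% with the FPKM totals and 2.59% with no filter, where the 28565 genes include many with few counts. By limma they were 13.4% and 13.2% with pseudocounts of 1 and 0.1. Without both libraries numbered 3, sense genes were 3 higher and 2 lower (6.3% of all genes called). Over the fits without 1 library, 0 to 3 sense genes were higher and 0 to 1 lower (0.826% to 10.9% of all genes called). The members' median log2 fold change of -0.15 reversed to 0.091 with the FPKM totals and to 0.055 and 0.082 by limma with pseudocounts of 1 and 0.1, where the median of all genes was 0.24, 0.18 and 0.23. The members' median minus that of all genes was -0.15 with the FPKM totals and -0.12 and -0.15 by limma, and ran from -0.17 to -0.09 over all alternatives except the other count minimums, where it was not computed.

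Signs reversed under the FPKM totals, limma with a pseudocount of 1 and limma with one of 0.1, in that order, at 0.091, 0.085 and 0.086 for ZFAS1, 0.063, 0.059 and 0.064 for TUG1, 0.044, 0.039 and 0.040 for NOP14, 0.12, 0.11 and 0.13 for UBA6, 0.17, 0.15 and 0.17 for SLC25A25, 0.093, 0.10 and 0.11 for TNFRSF14, 0.035, 0.029 and 0.036 for PAK1, and 0.049, 0.042 and 0.061 for HAGLR. Over the fits without 1 library, the log2 fold change ran from -0.10 to 0.41 for RP11-282O18.3, -0.11 to 0.12 for AC002480.3, -0.26 to 0.0023 for UBA6, -0.0074 to 0.18 for HNRNPU, -0.011 to 0.18 for WAC-AS1, -0.13 to 0.020 for SLC25A25, -0.29 to 0.092 for TNFRSF14 and -0.034 to 0.29 for MFSD10. Without both libraries numbered 3, AC002480.3 was at -0.0087 and SLC25A25 at 0.045. None of these genes was called in the reported fit, and the cause was not tested. Few counts also limit precision, since 40 members had under 300 in all.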

Other observations

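Other classes of noncoding RNA in the same libraries also had medians below 0 in the reported fit. The place of 0 depends on the scaling, since the median of all genes was 0.24 with the FPKM totals. The classes were not computed with that scaling. At the same minimum of 200 counts, the table held 128 long intergenic noncoding RNAs, of which 0 rose and 8 fell (6.25% called), with a median log2 fold change of -0.08 and 67.2% of values below 0. Of 68 processed transcripts 1 rose and 1 fell (2.94% called), with a median of -0.09 and 66.2% below 0. Of 19 processed pseudogenes 0 rose and 1 fell (5.26% called), with a median of -0.03 and 52.6% below 0. Of 11 sense-intronic transcripts 0 rose and 0 fell, with a median of -0.22 and 72.7% below 0. Of 19 transcripts that the annotation leaves to be experimentally verified 0 rose and 4 fell (21.1% called), with a median of -0.34 and 89.5% below 0. Of 10504 protein-coding genes 113 rose and 200 fell (2.98% called), with a median of 0.01 and 47.4% below 0. The classes are given as counts, without a test of the difference between them, and the calls are those of edgeR over all genes.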
